A study of Bos taurus with 6 samples.

Results

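Genes that hold chromosomes together, pair them in meiosis or attach them to the spindle were followed in bovine oocytes collected after coasting with or without a gonadotropin-releasing hormone (GnRH) antagonist. These cohesin, synapsis and kinetochore genes were chosen by gene symbol alone, from the names of the SMC, SYCP, SYCE, STAG, CENP, BUB, SGOL, PDS5 and HORMAD families and from 13 single symbols such as REC8, RAD21, NDC80 and MAD2L1. The rule found 52 genes on 74 probes, among 15229 gene symbols and 43794 probes on the array. Of these, 50 genes on 68 probes were bright enough to be tested, against 12314 genes on the whole array.

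The cells were oocytes of Holstein cows of 2nd parity, freed mechanically from their cumulus cells after ovum pick-up, and 3 cows were studied. In both groups a cow received follicle-stimulating hormone (FSH) every 12 h for 3 days and then none for 68 h, the coasting period. The control group had coasting alone, and the treated group had the GnRH antagonist cetrotide for the whole of coasting, so that FSH stimulation and coasting were common to both. Every cow served as its own control, with a month or more between collections. Oocyte RNA of a collection was amplified to antisense RNA, and both RNAs of a cow were hybridised together on an array with 2 colours, once in each dye orientation. This gave 6 arrays but 3 replicates, 1 per cow. Since each cow gave 1 RNA preparation per condition, the treatment cannot be told apart from the collection and its RNA preparation within a cow.

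In mammals, oocytes pair and recombine their chromosomes before birth and then arrest for a long period with sister chromatids held together by cohesin, a ring-shaped protein complex. The synaptonemal complex joins homologous chromosomes during pairing and is taken apart before the arrest. When meiosis resumes, kinetochores built on the centromeres capture spindle microtubules, and the spindle checkpoint delays the release of cohesin until the chromosomes are attached. Fully grown oocytes are close to silent in transcription, and much of their messenger RNA is stored for maturation and for the early embryo.

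The probes of these genes were brighter than most. Their median log2 intensity by the brightest probe of a gene was 10.50, against 8.17 for all genes tested, and 43 of the 50 genes (86%) stood above the negative control spots in all 12 readings, against 70.4% of all genes. REC8, the meiotic partner of the SMC proteins in cohesin, exceeded them in 1 of 6 antagonist readings and in none of the control readings, and HORMAD2, a protein of the chromosome axis, did the same. Both were therefore not tested, as were 1 further probe each of SMC4, ZWINT, NIPBL and SMC5, which never exceeded the negative controls. CENPA, SGOL1, SYCP1 and WAPAL were not found among the symbols of the annotation used here and were not analysed here. Each probe has its own response, so these intensities describe how well the probes were measured and do not rank the genes by messenger RNA level.

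The oocyte label was checked against marker genes. Of 18 oocyte markers 17 were tested, and 16 of them stood above the negative controls in all 12 readings. Most tested markers of other cells did so too: 7 of 10 for granulosa and cumulus, 5 of 7 for theca and stroma and 3 of 5 for blood and endothelium. The summed intensity of the oocyte markers lay between 149163 and 162049 in the antagonist channel and between 143497 and 158588 in the control channel. Granulosa and cumulus markers (10 of 15 tested) summed to between 10977 and 35134 with antagonist and between 10961 and 31973 in controls. Theca and stroma markers (7 of 9 tested) summed to between 3888 and 6982 against 3547 to 4560, and blood and endothelial markers (5 of 8 tested) to between 1189 and 1958 against 1156 to 1714. The lists differ in length and each probe has its own response, so these sums do not rank the cell types by amount. As log2 ratios of antagonist over control, 12 of the 17 oocyte markers and 5 of the 10 granulosa and cumulus markers had means above 0. So did all 7 theca and stroma markers and 4 of the 5 blood and endothelial markers, against 6407 of all 12314 genes. Theca and stroma markers below 0 numbered 1, 5 and 0 in cows 1 to 3, and 1 of the 7 was above 0 in all 3. Granulosa and cumulus markers below 0 numbered 6, 7 and 4 of 10 in cows 1 to 3, with medians of -0.0039, -0.07 and 0.03. In cow 3 INHA (1.4), INHBA (1.48) and VIM (1.52) were the highest markers, while HAS2 was at -0.38. The part of such cells in the ratios below was not tested, and in RNA from whole collections, fewer cells of a type cannot be told apart from less RNA per cell.

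Values below are log2 ratios of antagonist over control, so that a negative value means a weaker signal with antagonist, given as the mean of 3 cows with its SD. No member probe passed the test: 0 of 68 had an adjusted p under 0.05 by limma over all probes tested, where the share called among all 32527 probes was also 0%. The smallest adjusted p-value among them was 0.28. Without adjustment, 10 of the 68 probes (14.7%) had p under 0.05, against 12.7% of all probes, and, by the brightest probe of a gene, 6 of the 50 genes (12%), against 15.1% of all genes. Of these 6 genes, 3 had lower and 3 higher signal with antagonist, where the background was 6.57% lower and 8.57% higher. By gene the share was thus below that of the array as a whole and by probe slightly above it, and the 6 genes below are described by their values and not called changed.

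The median ratio of the 50 genes was -0.04, against 0.0044 over all genes tested, and 32 of them (64%) lay below 0, against 48% of all genes. By cow the medians were 0.03, -0.09 and -0.05 in cows 1, 2 and 3, with 22, 33 and 27 genes below 0. In percent this was 44%, 66% and 54%, against 49.7%, 47.8% and 47.4% of all genes. The shift below 0 was therefore seen in cows 2 and 3 and not in cow 1. Only 9 genes (18%) were negative in all 3 cows, close to the 17.1% of all genes, and 6 (12%) were positive in all 3, against 20.7%. With the authors' deposited ratios in place of those computed from scanner intensities, 32 genes again lay below 0 and the median was again -0.04. An unadjusted p under 0.05 by limma was reached by 5 of the 50 genes. Of all 12314 genes, 5869 lay below 0 with these ratios and 1896 had an unadjusted p under 0.05, with a median of 0.0055.

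**Figure D1:**
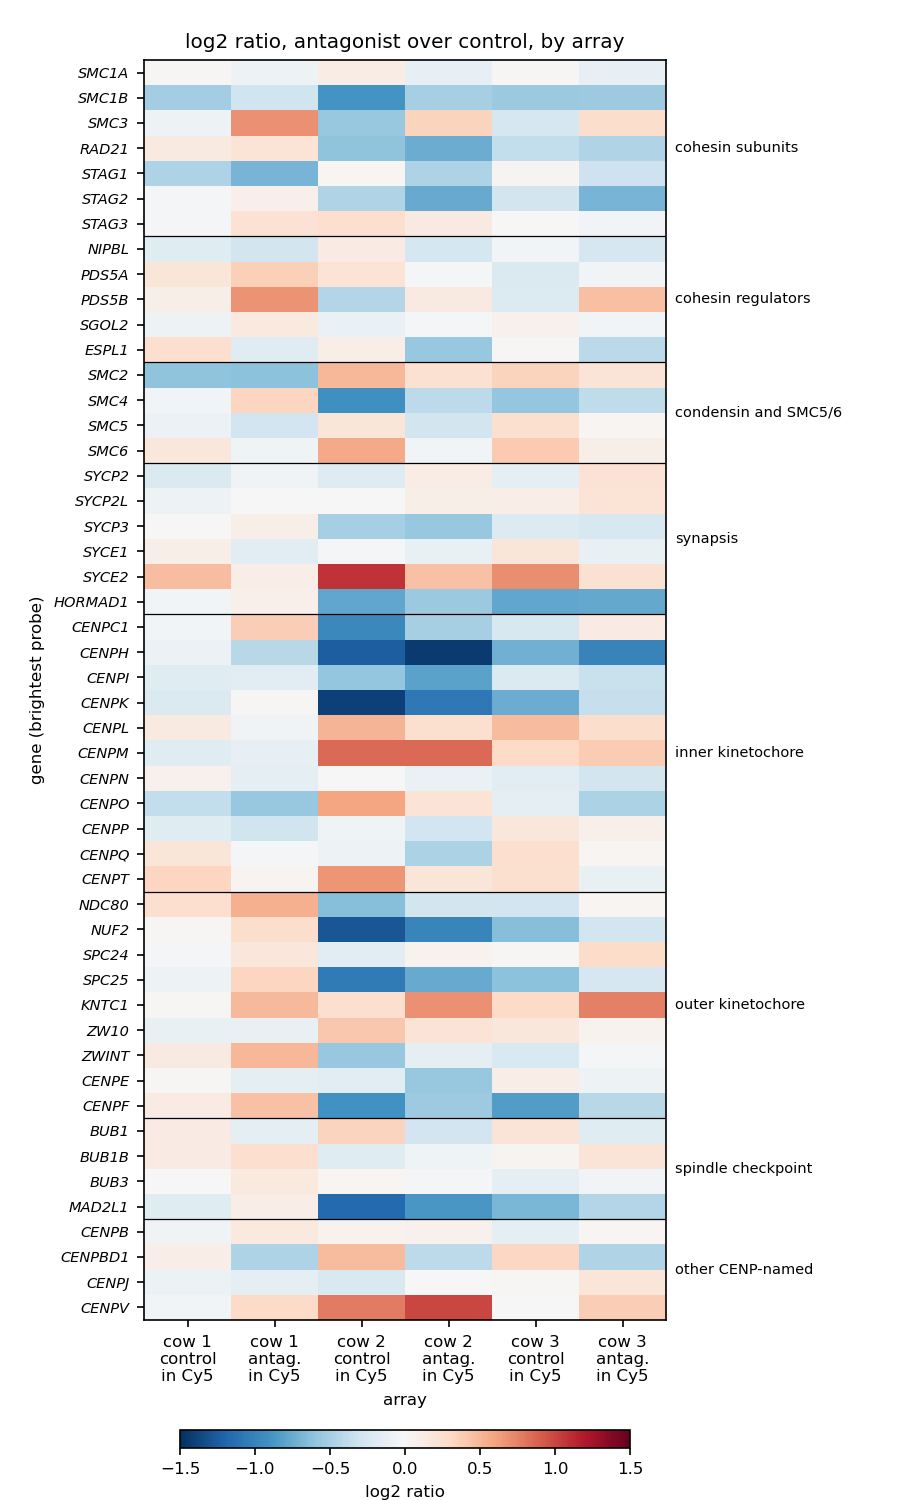
Log2 ratio of antagonist over control on each of the 6 arrays (columns, both dye orientations of each cow) for the 50 genes tested (rows, brightest probe, grouped by role); blue is lower and red higher with antagonist. SMC1B, CENPH and CENPI are blue on every array, SYCE2 and KNTC1 are red on every array, and many kinetochore genes are blue in cow 2 and near white or red in cow 1.

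Among cohesin subunits, SMC1B had the smallest p of all members. SMC1B is the meiotic form of the SMC1 arm of cohesin, and in mice it is needed to keep chromatids together in ageing oocytes. Its ratios (probe EMBV3_30141) with control in Cy5 were -0.53, -0.90 and -0.56 in cows 1, 2 and 3, and with antagonist in Cy5 they were -0.30, -0.49 and -0.55. All 6 arrays lay below 0, and by its mean cow 1 was nearest to it. The mean was -0.55 ± 0.14 (SD, n = 3), a 1.47-fold lower signal, with an adjusted p of 0.28 by limma. The cows' ratios did not differ beyond the error of the dye exchange at the threshold used (adjusted p = 0.066 by limma's F-test). Its mitotic counterpart SMC1A gave -0.03 ± 0.026 on a dim probe, with values of -0.03, -0.003 and -0.05 in the 3 cows.

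Most other cohesin subunits varied more across cows. RAD21, the mitotic kleisin that closes the ring, gave 0.17, -0.68 and -0.41 in cows 1 to 3, and STAG2, a subunit that binds the kleisin, gave 0.02, -0.61 and -0.48. Both were thus near or above 0 in cow 1 and below it in the other cows. The STAG2 probe was dim and exceeded the negative controls in 4 of 6 antagonist readings and in all control readings. STAG1, a relative of STAG2, was below 0 in all 3 cows but largest in cow 1 (-0.58, -0.22 and -0.14), for a mean of -0.31 ± 0.24; its other probes gave -0.41 ± 0.34 and -0.04 ± 0.12. STAG3, the meiotic form of this family, gave 0.09 ± 0.11. SMC3, the partner of both SMC1 proteins, gave 0.06 ± 0.21 on its brightest probe and -0.09 ± 0.025 on a second. On the first of these the sign followed the dye orientation. Ratios were 0.68, 0.34 and 0.26 when antagonist was in Cy5 and -0.08, -0.57 and -0.25 when it was in Cy3. As a group the 7 cohesin subunits tested had a median of -0.30, with 5 below 0 and medians of 0.02, -0.22 and -0.14 by cow.

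Genes that load, keep or release cohesin had means between -0.15 and 0.12, though some varied across cows. NIPBL, which loads cohesin, was negative in all 3 cows at -0.15 ± 0.079 (adjusted p = 0.40 by limma). ESPL1, the protease separase that cuts the kleisin at anaphase, gave -0.13 ± 0.15, with 0.04, -0.23 and -0.20 in cows 1 to 3. PDS5A and PDS5B, which bind the ring and regulate its stay on chromatin, gave 0.08 ± 0.20 and 0.12 ± 0.27. By cow, PDS5A gave 0.27, 0.09 and -0.12, and PDS5B gave 0.38, -0.15 and 0.13. SGOL2, the shugoshin that protects centromeric cohesin in meiosis, gave -0.01 ± 0.049 on a probe that exceeded the negative controls in 2 and 3 of 6 readings. The group's median was -0.01, with 3 of 5 below 0 and none at an unadjusted p under 0.05.

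Condensin and SMC5/6 are relatives of cohesin that compact chromosomes and act in DNA repair. SMC6 was at an unadjusted p under 0.05 by its only probe (EMBV3_38419), with ratios of 0.17, 0.57 and 0.39 in cows 1, 2 and 3 with control in Cy5. With antagonist in Cy5 they were -0.06, -0.04 and 0.08. The mean of 0.19 ± 0.11 (adjusted p = 0.39 by limma) thus came from 1 dye orientation, and the mean of the other was -0.0050. SMC5, which pairs with SMC6, gave -0.03 ± 0.16 and on a second probe -0.23 ± 0.24. The condensin arms also differed between cows. SMC2 gave -0.61, 0.36 and 0.26 in cows 1 to 3, and SMC4 gave 0.14, -0.66 and -0.48, so that by their brightest probes these partners stood on opposite sides of 0 in every cow. The other probes of SMC2 did not show this in cow 2, where they gave -0.24 and -0.33, and in cow 3 they gave 0.05 and -0.21. Their means were -0.11 ± 0.15 and -0.29 ± 0.075, the last negative on all 6 arrays (adjusted p = 0.29 by limma). The group of 4 had a median of -0.01.

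Of the synapsis genes, SYCE2 had the highest mean of all members. It encodes a protein of the central element, the strip that runs along the middle of the synaptonemal complex. Ratios of its brightest probe (EMBV3_39072) were 0.47, 1.08 and 0.70 in cows 1 to 3 with control in Cy5 and 0.10, 0.44 and 0.23 with antagonist in Cy5. Every array was above 0, and in each cow the array with antagonist in Cy3 was the higher. The mean was 0.50 ± 0.24 (1.42-fold higher, adjusted p = 0.31 by limma), but the other probes of the gene gave -0.10 ± 0.26 and -0.02 ± 0.14. The 3 probes thus did not show the same direction. SYCE1, its partner in the central element, gave -0.02 ± 0.056.

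HORMAD1, which marks chromosome axes that have not yet paired, gave 0.02 in cow 1, -0.66 in cow 2 and -0.77 in cow 3, for a mean of -0.47 ± 0.43. SYCP3, the main protein of the lateral elements, had ratios of 0.05, -0.53 and -0.22, and its second probe had 0.27, -1.0 and -0.25. Both genes were near or above 0 in cow 1 and below it in cows 2 and 3. SYCP2, which forms the lateral elements with SYCP3, gave -0.05 ± 0.088, and SYCP2L, named for its likeness to SYCP2, gave 0.05 ± 0.095. The SYCP2 probe exceeded the negative controls in 4 of 6 readings of each condition. The 6 synapsis genes had a median of -0.03, with 4 below 0.

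The inner kinetochore is the set of CENP proteins that sit on centromeric chromatin throughout the cell cycle. CENPH had the lowest mean ratio of all members. Its probe (EMBV3_24694) gave -0.09, -1.24 and -0.72 in cows 1 to 3 with control in Cy5 and -0.42, -1.44 and -1.0 with antagonist in Cy5. All 6 were below 0, and the arrays of cow 1 did not overlap with those of cows 2 and 3. The mean was -0.82 ± 0.55, a 1.76-fold lower signal (adjusted p = 0.35 by limma), and the cows' ratios differed by more than the exchange of dyes did (adjusted p = 5.0e-06 by limma's F-test).

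CENPI and CENPK belong to the same subcomplex as CENPH. The brightest probe of CENPI (EMBV3_25672) gave -0.18, -0.58 and -0.22 with control in Cy5 and -0.16, -0.80 and -0.34 with antagonist in Cy5. These 6 values were again all negative, largest in cow 2, and their mean was -0.38 ± 0.28 (adjusted p = 0.38 by limma). The other probes of CENPI gave -0.22 ± 0.14 and 0.24 ± 0.12, both at an unadjusted p under 0.05 and with opposite signs, so that the direction for this gene depended on the probe.

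CENPK gave -0.21, -1.40 and -0.75 with control in Cy5 and 0.01, -1.07 and -0.35 with antagonist in Cy5, for a mean of -0.63 ± 0.57 (adjusted p = 0.44 by limma). Cow 1 was near 0 and cow 2 far below it.

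CENPM, a further protein of this subcomplex, stood on the other side of 0 in cows 2 and 3. Its ratios were -0.18, 0.85 and 0.30 with control in Cy5 and -0.12, 0.85 and 0.38 with antagonist in Cy5, for a mean of 0.35 ± 0.50 (adjusted p = 0.60 by limma). A second probe gave -0.31, 0.86 and 0.38 in the 3 cows once the dyes were averaged, close to the first. Its single arrays ran from -0.86 to 1.49, and it had the largest dye term of any member probe (-0.58). By the brightest probes, CENPM in cow 2 thus lay at least 1.5-fold above control and CENPH, CENPI and CENPK at least 1.5-fold below it, while the other CENPI probes gave -0.38 and 0.11 in that cow.

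CENPL, whose partner CENPN reads the centromeric nucleosome, gave 0.13, 0.51 and 0.48 with control in Cy5 and -0.05, 0.24 and 0.26 with antagonist in Cy5. Of these 5 were above 0, and the mean was 0.26 ± 0.19 (adjusted p = 0.40 by limma). CENPN gave -0.11 ± 0.11 and -0.21 ± 0.31 on its 2 probes. CENPC1, which ties centromeric chromatin to the outer kinetochore, gave 0.16, -0.74 and -0.06 in cows 1 to 3, and CENPT, which does so by another route, gave 0.22 ± 0.18. The 11 inner kinetochore genes had a median of -0.11, with 8 below 0. Within it CENPO, CENPP and CENPQ, which form a subcomplex, gave -0.13 ± 0.47, -0.10 ± 0.19 and -0.02 ± 0.23 on their brightest probes. The other probes of CENPO gave -0.15 ± 0.024 and -0.07 ± 0.064, and that of CENPQ gave -0.11 ± 0.079.

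**Figure D2:**
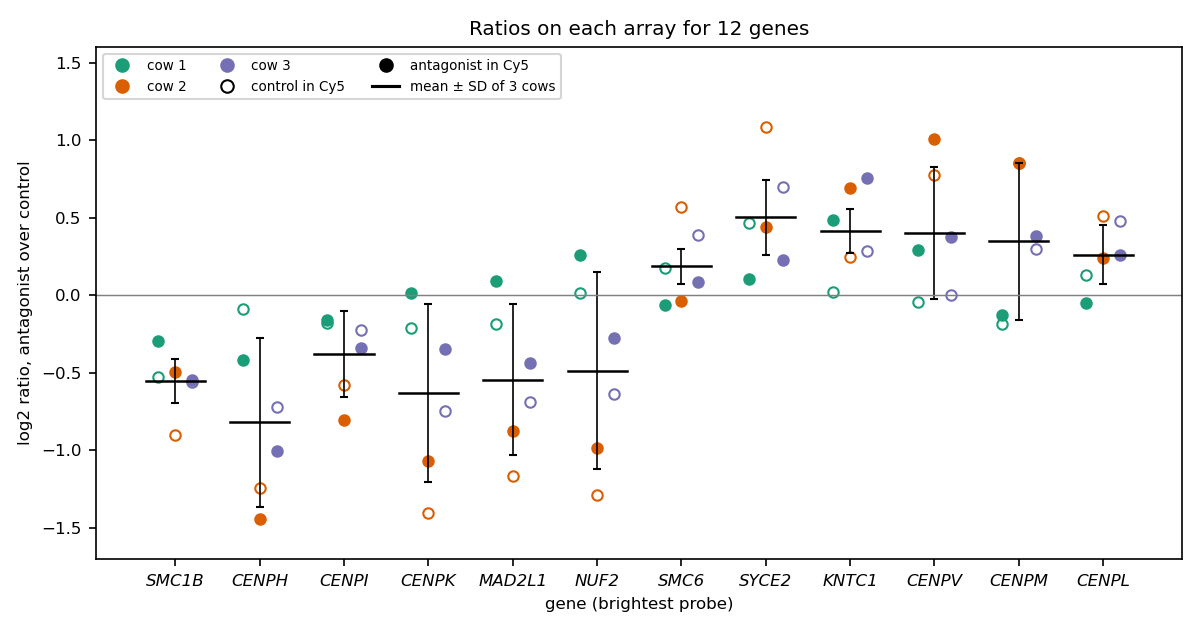
Log2 ratio of antagonist over control (y axis) on each array for 12 genes (x axis, brightest probe), the 6 at an unadjusted p under 0.05 and those among the 5 lowest and 5 highest mean ratios; colour gives the cow, filled points have antagonist in Cy5, and bars are mean ± SD of 3 cows. SMC6 (SD 0.11), SMC1B and KNTC1 (both SD 0.14) have the narrowest spreads of cow means, though arrays of SMC6 and KNTC1 differ by dye orientation. CENPH, CENPK, MAD2L1 and NUF2 have cow means between -0.25 and 0.14 in cow 1 and of -1.02 or lower in cow 2.

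Outer kinetochore proteins contact the microtubules. KNTC1 (ROD), a part of the complex that brings dynein and checkpoint proteins to kinetochores, was above 0 on every array. Its probe (EMBV3_34691) gave 0.02, 0.25 and 0.28 in cows 1 to 3 with control in Cy5 and 0.48, 0.69 and 0.76 with antagonist in Cy5. Every cow was above 0 and the dye orientations did not overlap, with means of 0.18 and 0.64. The mean over cows was 0.41 ± 0.14 (1.33-fold higher, adjusted p = 0.29 by limma). Fitted on the 6 arrays singly, with the cow as a random block and a dye term, KNTC1 was the only member probe to pass (adjusted p = 0.032), in a fit where 2.61% of all probes passed. ZW10, in the same complex, gave -0.11, 0.30 and 0.11 in cows 1 to 3, and ZWINT, which helps to recruit that complex, gave 0.32, -0.35 and -0.13.

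The NDC80 complex, the main coupler of kinetochores to microtubules, is made of NDC80, NUF2, SPC24 and SPC25. NUF2 was among the lowest ratios, with 0.01, -1.29 and -0.64 with control in Cy5 and 0.26, -0.99 and -0.27 with antagonist in Cy5. Its mean was -0.49 ± 0.64 (adjusted p = 0.56 by limma), with cow 1 above 0 and cows 2 and 3 below it. SPC25 gave 0.12, -0.91 and -0.43 in cows 1 to 3, and its second probe 0.06, -0.67 and -0.43. NDC80 gave 0.39, -0.46 and -0.13, and SPC24 gave 0.07, -0.06 and 0.15. NUF2, SPC25 and NDC80 shared an order of cows, highest in cow 1 and lowest in cow 2, and SPC24 stayed near 0.

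CENPF, a large protein of the outer corona, gave 0.28, -0.73 and -0.63 in the 3 cows, and CENPE, a kinetochore motor protein, gave -0.06, -0.36 and 0.01. The 9 outer kinetochore genes had medians of 0.14, -0.36 and -0.13 by cow, with 7 of 9 above 0 in cow 1 and 7 of 9 below it in cow 2.

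In the spindle checkpoint, MAD2L1 (MAD2), which inhibits the anaphase-promoting complex, gave -0.19, -1.16 and -0.69 with control in Cy5 and 0.09, -0.88 and -0.44 with antagonist in Cy5. The mean was -0.54 ± 0.49 (adjusted p = 0.43 by limma), and 5 of 6 arrays were below 0. The other checkpoint genes were near 0. BUB1, a checkpoint kinase, gave 0.01 ± 0.018, with -0.01, 0.02 and 0.01 in the 3 cows, although its single arrays ran from -0.29 to 0.34 with the dye. BUB1B (BUBR1), which binds the anaphase-promoting complex with MAD2, gave 0.06 ± 0.16. BUB3, which brings the BUB proteins to kinetochores, gave -0.01 ± 0.086 on a probe whose raw spot means of 28570 to 36428 lay close to the brightest spots of the arrays (38906 to 41132), and -0.07 ± 0.14 on a dimmer one. Whether the ratio of the bright BUB3 probe was compressed was not tested.

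Genes that carry a CENP name but were not placed in the groups above had a median of -0.01. CENPV was the highest of them, with -0.05, 0.77 and -0.0006 with control in Cy5 and 0.29, 1.0 and 0.37 with antagonist in Cy5, for a mean of 0.40 ± 0.43 (adjusted p = 0.49 by limma). Cow 2 was the highest in both orientations. CENPB, which binds a motif of centromeric satellite DNA, gave 0.01 ± 0.067, CENPJ, a centriole protein, gave -0.04 ± 0.12, and CENPBD1 gave -0.07 ± 0.11 on a probe near background.

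**Figure D3:**
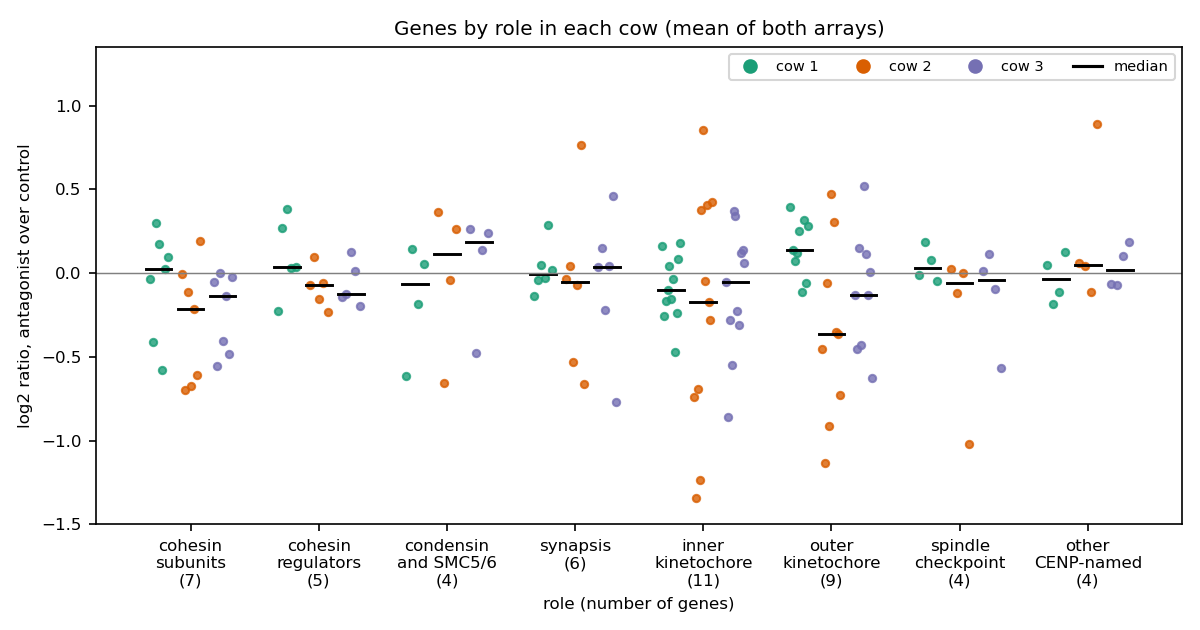
Log2 ratio of antagonist over control for each gene (points, brightest probe, mean of both arrays of a cow) by role (x axis, number of genes in brackets) and cow (colour); black bars are medians. Outer kinetochore genes have a median of 0.14 in cow 1, -0.36 in cow 2 and -0.13 in cow 3.

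In many of these genes the cows' ratios differed by more than repeat hybridisations of the same RNAs. A test that the 3 cows have the same ratio, in a fit of the 6 arrays with a dye term, passed for 34 of 50 genes (68%) at an adjusted p under 0.05 by limma, against 54.5% of all genes. The error in this test is the disagreement between both arrays of a cow after the dye term, which is technical, so that with 1 RNA preparation per cow and condition, animals and preparations cannot be told apart. By role it passed for 10 of 11 inner and 8 of 9 outer kinetochore genes, 4 of 7 cohesin subunits, 3 of 5 cohesin regulators, 3 of 4 condensin and SMC5/6 genes, 3 of 6 synapsis genes, 2 of 4 checkpoint genes and 1 of 4 other CENP-named genes. The median SD over cows was 0.203, against 0.140 for all genes. Over the 50 genes, ratios had an SD of 0.225, 0.511 and 0.310 in cows 1 to 3, close to that of all genes in the same cow (0.227, 0.485 and 0.310). Cow 2 thus had the widest ratios both here and on the array as a whole.

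A reading of 1.5-fold or more below control was reached by 13 of 50 genes (26%) in cow 2, against 8.86% of all genes. They were SMC1B, RAD21, STAG2, SMC4, HORMAD1, CENPC1, CENPH, CENPI, CENPK, NUF2, SPC25, CENPF and MAD2L1. In cow 3 there were 3 such genes (6%, against 2.31%), HORMAD1, CENPH and CENPF, all of which were also among the 13. The genes past this fold in both cows were thus 3 (6%, against 1.9% of all genes), and none (0) was 1.5-fold higher in both, against 3.54%. In cow 1 there was 1, SMC2 (2%, against 0.512%). In the other direction the counts were 0 in cow 1 (against 1.99%), 3 in cow 2 (6%, against 8.98%), which were SYCE2, CENPM and CENPV, and 0 in cow 3 (against 4.17%).

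Brightness moved with these counts. Among genes with a mean log2 intensity of at least 10, a level chosen after the values were seen, 8 of 28 members (28.6%) were at least 1.5-fold lower in cow 2, against 21.3% of all such genes, and 3 of 28 (10.7%) at least 1.5-fold higher, against 18.2%. In cow 3 it was 2 of 28 (7.14%) at least 1.5-fold lower, against 5.9%. Of these bright members 20 (71.4%) had a mean ratio below 0, against 52.9%, and their median was -0.10 against -0.03. The same F-test between cows passed for 23 of 28 (82.1%) against 87.1%, so that at this brightness the members' share was not above that of all genes. At an unadjusted p under 0.05 stood 3 of 28 (10.7%), against 21.8%.

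The pattern below 0 in cows 2 and 3 and above 0 in cow 1 was held by 12 genes (24%), against 15.6% of all genes. These were RAD21, STAG2, ESPL1, SMC4, SYCP3, HORMAD1, CENPC1, NDC80, NUF2, SPC25, ZWINT and CENPF. The opposite pattern was held by 5 (10%), against 16.8%, namely SMC2, SYCP2L, CENPM, ZW10 and BUB1, the last with ratios near 0. Pearson's r over the 50 genes was 0.82 between cow 2 and cow 3, -0.02 between cow 1 and cow 2, and 0.10 between cow 1 and cow 3. Over all genes these values were 0.80, 0.21 and 0.29. These correlations are across genes, which are not independent replicates, and the cows share the array design and its dyes. Both arrays of cow 2 and 1 array each of cows 1 and 3 shared a slide by the number in the file names, and the part of the slide in this pattern was not tested.

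**Figure D4:**
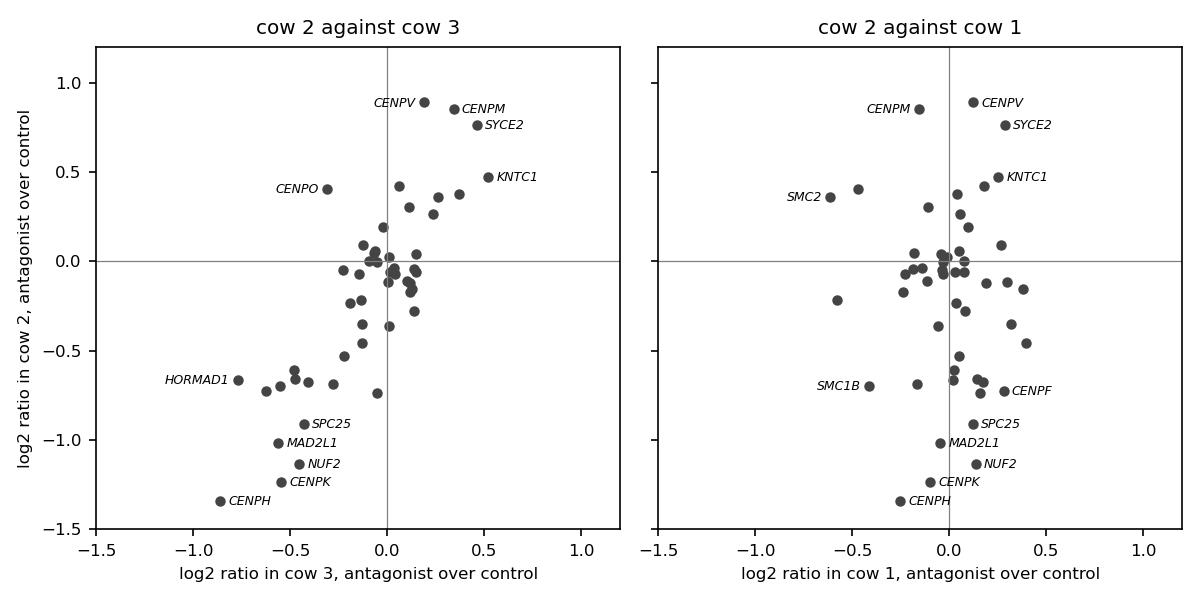
Log2 ratio of antagonist over control in cow 2 (y axis) against cow 3 (left) and cow 1 (right) for the 50 genes (points, brightest probe, mean of both arrays of a cow). Points follow a rising line on the left (r = 0.82) and none on the right (r = -0.02), where CENPH, CENPK, NUF2 and MAD2L1 lie between -0.25 and 0.14 in cow 1.

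Dye orientation left a mark on most of these genes. The dye term passed for 35 of 50 genes (70%) at an adjusted p under 0.05 by limma, against 64.6% of all genes. A dye effect that is equal on both arrays of a cow is balanced by the exchange of dyes and does not enter the means. By the number in the file names, only cow 2 had both orientations on the same slide. In the other cows the exchange of dyes was also a change of slide, so dye and slide cannot be told apart there. On all 6 arrays 3 genes were negative (6%, against 6.07% of all genes), SMC1B, CENPH and CENPI, and 2 were positive (4%, against 8.7%), SYCE2 and KNTC1. Both shares were at or below the background.

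More than 1 probe was tested for 13 of the genes. In 9 of them every probe had the same sign, and in 4 of them (CENPI, SMC2, SMC3 and SYCE2) signs differed. Only for SYCP3, SPC25, CENPM and CENPI did all probes of a gene follow the same order of cows. For CENPI and SYCE2, which are 2 of the 6 genes at an unadjusted p under 0.05, the brightest probe was not matched in sign by all the others.

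**Figure D5:**
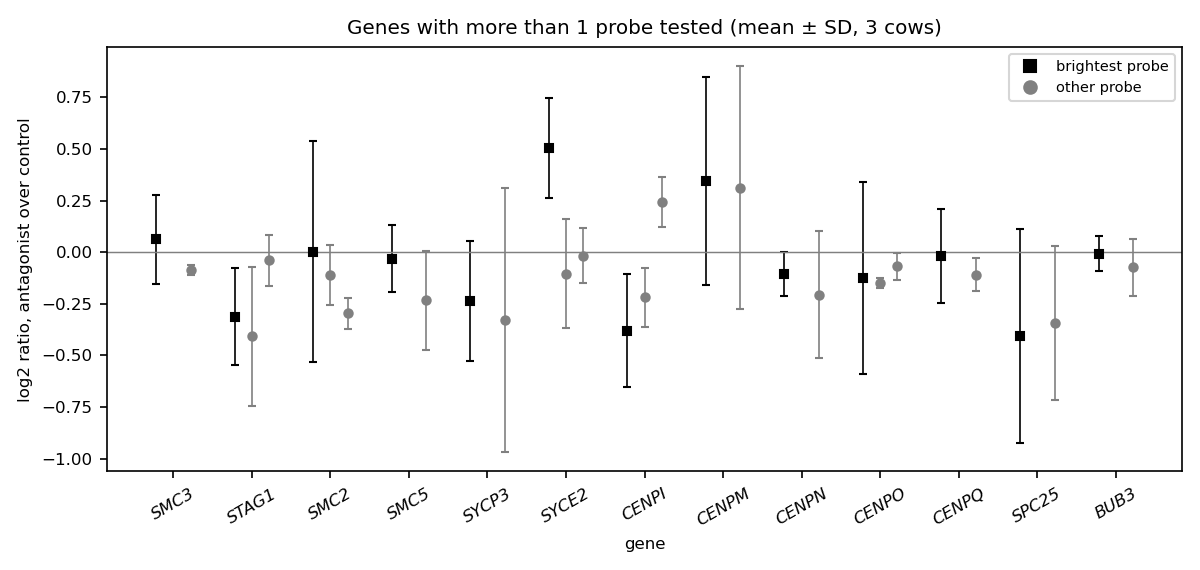
Mean log2 ratio of antagonist over control (y axis, bars are SD of 3 cows) of every tested probe for the 13 genes with more than 1 (x axis); black squares are the brightest probe and grey circles the others. Probes of CENPI and SYCE2 lie on both sides of 0, while both probes of SPC25 (-0.41 and -0.34) and of CENPM (0.35 and 0.31) lie together.

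Other genes of these pathways, outside the symbol rule, were read from fixed lists, and none had an adjusted p under 0.05 by limma. Counts are of gene names, some of which are synonyms. Of 26 names of genes that build the kinetochore or load the centromere, 17 were tested, with a median of 0.02 and 3 at an unadjusted p under 0.05, all higher with antagonist. This was 17.6%, close to the 15.1% of all genes (8.57% higher). One of them, STRA13 (0.995 ± 0.72), has a symbol that has been used for more than 1 gene. The others were SKA3, a microtubule-binding protein of the outer kinetochore (0.48 ± 0.30), and CLASP2, which stabilises microtubule ends (0.16 ± 0.058, and 0.09 ± 0.20 and 0.09 ± 0.14 on its other probes). Of the 17 genes, 10 had means above 0 and 7 below, from -0.65 to 0.995. The genes next in p, NSL1, MIS18A and SKA1, lay below 0 on their brightest probes. Of 16 names of cohesin regulators 13 were tested, with a median of 0.05. At an unadjusted p under 0.05 were 2 genes (15.4%, against 15.1% of all genes), 1 in each direction. CSNK1E, a kinase of the family that in yeast marks the meiotic kleisin for cleavage, gave 0.56 ± 0.11, and ESCO2, which acetylates SMC3 to fix cohesion, gave -0.17, -1.22 and -0.77 in the 3 cows. All 4 probes of ESCO2 were negative in all 3 cows, from -0.16 ± 0.16 to -0.72 ± 0.53.

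The 6 condensin subunits other than SMC proteins had a median of -0.01 and 1 gene at an unadjusted p under 0.05 (16.7%, against 15.1% of all genes). That gene was NCAPG2 of condensin II at 0.35 ± 0.11, and NCAPD3 gave 0.12 ± 0.048. Of 6 names of SMC5/6 partners 5 were tested, with 2 at an unadjusted p under 0.05 (40%, against 15.1% of all genes), 1 in each direction. NSMCE1, a RING-domain subunit, gave 0.31 ± 0.066, while NDNL2, a MAGE-family subunit, gave -0.59 ± 0.45 on its brightest probe and 0.08 ± 0.021 on the other. Of 22 names of meiotic recombination genes 11 were tested, with a median of -0.06 and 2 at an unadjusted p under 0.05, both lower with antagonist. This was 18.2%, close to the 15.1% of all genes (6.57% lower). PSMC3IP (HOP2), which helps the recombinase in strand invasion, gave -0.32, -0.22 and -0.23 with control in Cy5 and -0.38, -0.43 and -0.38 with antagonist in Cy5. All 6 arrays lay in a narrow range below 0, for a mean of -0.33 ± 0.023 (adjusted p = 0.28 by limma). MAEL, a germ-cell protein of transposon silencing, gave -0.24 ± 0.12.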

How the data were processed

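Scanner files hold raw spot intensity at 635 nm (Cy5) and 532 nm (Cy3), per the file headers, with no correction applied, after 14 rows of statistics in each file had been dropped. A table of log2 ratios was deposited by the authors, and how they were normalized is not given in the sources used here. It served as an alternative. Of 45220 spots, 105 marked as ignored were left out. In limma 3.58.1 under R 4.3.3, intensities were corrected by normexp (offset 50, mean local background) and then by loess inside each array, control spots having weight 0. A cow's arrays were averaged, and the 3 cow values were set against 0 with lmFit and eBayes (two-sided), adjusted by Benjamini and Hochberg's method over 32527 probes. The pairing by cow comes from the labels and lies on each array. A fit of all 6 arrays with cow and dye effects tested both of these.

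A probe was tested if its raw signal exceeded the mean plus 2 SD of 152 negative control spots in at least 3 of 6 readings of a condition. Probes above them made up 55.8% to 77.5% of a channel. Median spot intensity was 191 to 272 in Cy5 and 219 to 277 in Cy3, against negative controls at 154 to 222 and 170 to 214, so signal over background and the number of arrays limit precision. Slide membership was read from a number in the scanner files' names: 3 slides, 1 of which held 4 arrays (all 3 with antagonist in Cy5 and that of cow 2 with control in Cy5).

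Symbols come from the platform annotation; 50 of the 52 occur as symbols in RefSeq's ARS-UCD table and 2 as synonyms (CENPC1 of CENPC, SGOL2 of SGO2). Each gene is represented by its brightest probe. Genes named by rule were a fixed set by role and those at an unadjusted p under 0.05. The rule also took the 5 highest and 5 lowest ratios and the 2 of smallest p of each pathway list. Some further members and list genes were named beside them, outside this rule. The shared slide, each dye orientation, each cow, the filter, normalization and background correction were varied. Members, lists, tests and markers were chosen with earlier results of these data known. The fits were run on simulated data to check that they returned the ratios and dye terms put in. How often a change of a given size would pass the adjusted test is not reported here.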

Additional observations from a re-analysis of the deposited data

How the results depend on the processing

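Of 18 other settings 17 were run; slide as a fixed block beside cow and dye left no residual degrees of freedom and was not run. One more, the median in place of the mean of the local background, was chosen after seeing the data. No member probe had an adjusted p under 0.05 in any of them except 1: with cow as replicate block (random) beside a dye term, 1 probe (KNTC1) passed, and the count of genes at an unadjusted p under 0.05 was 12 in place of 6 (24%, against 22.9% of all genes). That fit takes the 6 arrays singly with an estimated correlation of 0.7655 within a cow. The same count was 13 with antagonist in Cy5 alone (26%, against 28.1%) and 11 with control in Cy5 alone (22%, against 31.9%). On the 4 arrays of the shared slide it was 17 (34%, against 28.5%), fitted as independent values, since a block could not be estimated there. In the other settings with all 3 cows the count was 5 to 9, of 43 to 52 genes tested. It was set beside all genes for the deposited ratios alone, and elsewhere it is not read as a result about the members. Without cow 1 it was 20 (40%, against 27.7% of all genes), without cow 2 it was 5 (10%, against 9.82%) and without cow 3 it was 2 (4%, against 5.98%), so leaving out 1 cow moved it from 2 to 20; the cause was not tested. The median ratio of the members was -0.14 under median centring, where that of all genes was 0.0093, and -0.12 with antagonist in Cy5 alone, where that of all genes was -0.0016; without 1 cow it ran from -0.06 to -0.02. Genes below 0 numbered 29 to 35 without 1 cow and 26 when every reading had to exceed the negative controls, which tests fewer genes. SMC6 reversed to -0.0050 with antagonist in Cy5 alone. Where they were run, on 43 to 52 genes, the difference between cows passed for 25 to 36 genes and the dye term for 30 to 42. Neither range was set beside all genes, so neither is read as a result about the members. Dim probes limit what can be seen for REC8, HORMAD2, SGOL2, SMC1A, CENPBD1, SYCP2, SYCE1, STAG2 and CENPB.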

Other observations

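A probe outside the symbol rule is annotated MAD2, a synonym of MAD2L1 in RefSeq's table, and was looked at after its values were seen. It gave -0.16, -1.01 and -0.58 in cows 1, 2 and 3, for a mean of -0.58 ± 0.42 (SD, n = 3; adjusted p = 0.38 by limma). The MAD2L1 probe gave -0.05, -1.02 and -0.56 in the same cows. Both were lowest in cow 2 and nearest to 0 in cow 1.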
